A study of Mus musculus with 12 samples.

Results

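Lactate handling and pH control were followed here through 7 genes, LDHA, LDHB, SLC16A1, SLC16A3, BSG, CA9 and CA12, in the RNA of EMT6 cells, a mouse breast cancer line. The genes were found by their symbols among the 60683 rows of the expression table, and all 7 had a row. The cells were a subclone carrying a short hairpin RNA against ISG20 (shISG20), an interferon-induced exonuclease, and a control subclone (shNTC). There were 4 groups of 3 libraries each, 12 in all, measured after 48 hours: shISG20 cells at 1% O2, shISG20 cells at 20% O2, shNTC cells at 1% O2 and shNTC cells at 20% O2. The labels give the treatment of shISG20 replicate 3 at 20% O2 as 484 hours. Each hairpin is represented by 1 subclone, so loss of ISG20 and other traits in which the subclones differ cannot be told apart. Replicates are called biological in the labels, without word on whether cultures were separate. The p-values thus measure spread between these libraries, which may in part be technical.

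A cell that burns glucose without oxygen reduces pyruvate to lactate, and the lactate and its proton must leave the cell. Lactate dehydrogenase, a tetramer of A and B chains encoded by LDHA and LDHB, carries out the interconversion. The monocarboxylate transporters MCT1 (SLC16A1) and MCT4 (SLC16A3) move lactate together with a proton across the plasma membrane, and basigin (BSG) is the chaperone that brings both to the cell surface. Carbonic anhydrases IX and XII (CA9 and CA12) are membrane enzymes that hydrate carbon dioxide outside the cell and so take part in setting pH around it. LDHA, SLC16A3, BSG, CA9 and CA12 are known as genes that hypoxia can induce in tumour cells, LDHA, SLC16A3 and CA9 through hypoxia-inducible factor.

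The authors counted mouse reads against a human genome build, so a gene appears only as far as its reads aligned to the human sequence. Levels, given in TPM (transcript reads scaled to length and to a fixed library total), are therefore compared between groups for 1 gene at a time and not between genes, and a gene listed at 0 may be one whose reads did not align. Recovered depth was 3173991 to 5201799 reads per library. A row was tested when it reached 1 TPM in at least 3 of the 12 libraries, which 14389 rows did. LDHA, SLC16A1, SLC16A3, BSG and CA12 were tested, 5 of 7. BSG passed this minimum through its values at 1% O2 alone, so it had to stand higher there, and its values at the different oxygen levels are a description with no test. CA9 reached 1 TPM in a single library and was not tested, and LDHB was listed at 0 in all 12 libraries and is reported as not measured. In a chi-square comparison of recovered reads between replicates, shNTC replicate 3 at 1% O2 lay furthest from its group (2.31 and 2.21 per degree of freedom, against 1.53 for the other pair), followed by shISG20 replicate 2 at 1% O2 (1.91 and 1.91, against 1.36). The calls lost without single libraries are given with each gene.

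In shISG20 cells ISG20 had 0.413, 0.595 and 0.690 TPM at 1% O2 and 0.215, 0.135 and 0.323 TPM at 20% O2, against 8.81, 8.44 and 7.59 TPM in shNTC cells at 1% O2 and 2.03, 2.65 and 2.70 TPM in shNTC cells at 20% O2. All shISG20 libraries lay below all shNTC libraries. Of 9 epithelial and carcinoma markers 4 were tested, KRT7, KRT8, KRT18 and KRT19, and their list summed to 231 to 239 TPM in shISG20 cells at 1% O2 and 47.9 to 58.0 TPM at 20% O2, against 199 to 217 and 42.1 to 53.8 TPM in shNTC cells. CDH1, CLDN4 and CLDN7 were listed at 0. Of 8 leucocyte markers PTPRC, CD68, ITGAM, CD3E and LYZ were listed at 0. CSF1R, the 1 that reached the minimum for testing, did so at 1% O2 alone, with a mean of 1.84 ± 0.805 TPM in shISG20 cells and 2.56 ± 0.780 TPM in shNTC cells (SD, n = 3 each). The list summed to 1.18 to 2.74 and 2.00 to 3.23 TPM in shISG20 and shNTC cells at 1% O2, and to at most 0.150 and 0.135 TPM at 20% O2. The 5 endothelial markers summed to at most 0.161 TPM, with PECAM1, CDH5 and KDR listed at 0. Of the 5 fibroblast markers LUM and THY1 were listed at 0. The list summed to 719 to 827 and 617 to 674 TPM in shISG20 cells at 1% and 20% O2. In shNTC cells it summed to 492 to 631 and 813 to 872 TPM. COL1A2 made up nearly all of these sums, with means of 764 and 650 TPM in shISG20 cells at 1% and 20% O2. Its means in shNTC cells were 575 and 849 TPM. The sums thus describe COL1A2 and not the list as a whole. The 5 markers of a mesenchymal state, all above 0, summed to 8654 to 8858 and 2433 to 2695 TPM in shISG20 cells, against 7554 to 7744 and 3329 to 3357 TPM in shNTC cells. VIM made up most of that sum and stood higher at 1% O2, whereas FN1 fell (-0.80 and -1.47, log2, in shISG20 and shNTC cells). ZEB1 passed the minimum for testing through its values at 20% O2 alone, so its direction was set by the filter. Its means at 1% against 20% O2 were 0.344 against 2.53 TPM in shISG20 cells and 0.390 against 3.33 TPM in shNTC cells. S100A4 rose at 1% O2 in both subclones (1.37 and 0.47, log2, in shISG20 and shNTC cells). TWIST1 rose in shISG20 cells (0.96), and its value in shNTC cells was -0.06. The part of these markers in the results was not tested. In a bulk library, fewer cells that express a gene and less of its RNA per cell cannot be told apart.

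The start regions of 4 of the mouse genes are shown because their RNA levels are what the results turn on, and because the sequence ACGTG, or GCGTG, is the core that hypoxia-inducible factor is known to bind. Each window runs from 250 bases before to 50 bases after the annotated start (RefSeq, GRCm38.p6), 5′ to 3′ on the strand of the gene. Capitals mark ACGTG or GCGTG read on either strand, so that CACGT and CACGC are the same letters on the other strand and CACGTG is a match on both.
Ldha chr7:46845554-46845853 (+): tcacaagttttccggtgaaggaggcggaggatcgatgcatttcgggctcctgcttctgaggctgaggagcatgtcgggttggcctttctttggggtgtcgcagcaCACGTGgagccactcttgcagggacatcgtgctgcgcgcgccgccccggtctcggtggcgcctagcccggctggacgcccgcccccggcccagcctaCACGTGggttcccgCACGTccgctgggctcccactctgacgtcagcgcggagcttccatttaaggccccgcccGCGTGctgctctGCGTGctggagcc
Slc16a1 chr3:104638414-104638713 (+): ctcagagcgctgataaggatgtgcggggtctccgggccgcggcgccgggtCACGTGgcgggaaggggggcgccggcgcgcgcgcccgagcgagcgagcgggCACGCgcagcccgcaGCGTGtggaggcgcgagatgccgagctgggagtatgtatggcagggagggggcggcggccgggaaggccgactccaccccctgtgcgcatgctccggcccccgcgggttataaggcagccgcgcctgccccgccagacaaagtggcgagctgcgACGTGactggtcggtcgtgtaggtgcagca
Slc16a3 chr11:120948817-120949116 (+): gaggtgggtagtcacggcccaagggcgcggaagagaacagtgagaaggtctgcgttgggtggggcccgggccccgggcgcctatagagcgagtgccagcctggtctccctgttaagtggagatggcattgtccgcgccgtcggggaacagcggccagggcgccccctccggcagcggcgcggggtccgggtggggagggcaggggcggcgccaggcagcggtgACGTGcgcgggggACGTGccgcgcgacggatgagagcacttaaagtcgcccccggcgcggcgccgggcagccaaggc
Car12 chr9:66713436-66713735 (+): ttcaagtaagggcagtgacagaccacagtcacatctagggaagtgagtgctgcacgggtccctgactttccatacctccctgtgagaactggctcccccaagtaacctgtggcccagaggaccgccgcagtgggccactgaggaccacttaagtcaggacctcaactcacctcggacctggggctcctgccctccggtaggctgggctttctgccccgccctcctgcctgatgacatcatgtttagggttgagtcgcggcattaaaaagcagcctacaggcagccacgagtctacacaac
The Ldha window held 5 matches to ACGTG and 2 to GCGTG, Slc16a1 3 and 2, Slc16a3 2 and 0, and Car12 0 and 0. A further annotated start of Ldha, at chr7:46846832-46847131, held 0 and 2. The windows of Ldhb and Car9 held 0 and 1, and 1 and 0. Of 32851 windows of the same length in the RefSeq table, 19.6% held ACGTG, 32.4% GCGTG and 43.8% either, and 1.66% held 5 or more matches. A match is a description of these letters and not a bound site, and a window without one says nothing of the factor. No promoter entry was matched for Bsg.

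At 1% O2 the RNA of LDHA, SLC16A3 and CA12 rose and that of SLC16A1 fell in both subclones. LDHA rose by 2.09 (log2) in shISG20 cells and by 1.98 in shNTC cells. SLC16A3 and CA12 rose less in shISG20 cells, by 1.21 against 1.96 and by 1.51 against 2.35. These 4 genes were called in both comparisons. The call of SLC16A1 in shNTC cells was lost under some ways of scaling the libraries, given below. The share called among all rows tested was 56.8% in shISG20 cells and 50.9% in shNTC cells, with 14% and 12.8% called higher and 42.8% and 38.1% called lower, so calls as such were common. For the same 4 genes the libraries at 1% O2 did not overlap those at 20% O2, which held for 62.2% of all rows in shISG20 cells and 58.5% in shNTC cells. Tests were run with limma on log2(TPM + 1), and adjusted p-values are Benjamini-Hochberg values over all rows tested.

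**Figure D1:**
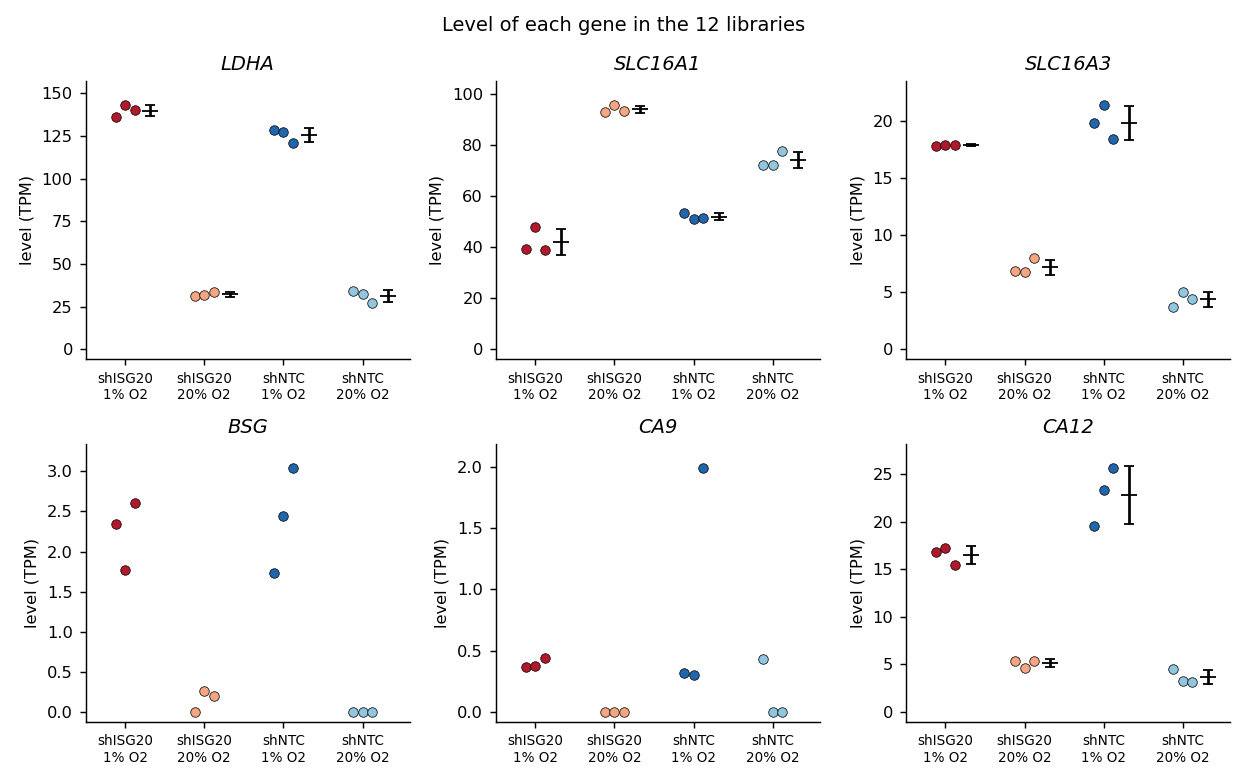
Level in TPM (vertical axes, linear) of the 6 genes with a value above 0 in each of the 12 libraries, by group. Points are libraries, bars beside them the mean and SD of 3 libraries, left out for BSG and CA9, which were listed at 0 in some libraries. LDHA, SLC16A3, BSG and CA12 stand higher at 1% O2 in both subclones, and SLC16A1 stands lower.

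LDHA (ENSG00000134333), the dehydrogenase chain that favours the formation of lactate, had 136, 143 and 140.3 TPM in shISG20 cells at 1% O2, against 31.0, 31.8 and 33.7 TPM in shISG20 cells at 20% O2. The shNTC values were 128, 128 and 121 TPM at 1% O2, against 33.9, 32.5 and 27.4 TPM at 20% O2. The libraries at 1% O2 lay far above those at 20% O2, with no overlap, in both subclones. The mean was 139.8 ± 3.33 against 32.2 ± 1.40 TPM in shISG20 cells (SD, n = 3 each), a 4.34-fold difference (log2 fold change 2.09, SE 0.0761, limma adjusted p = 3.11e-09). It was 125.7 ± 3.93 against 31.3 ± 3.42 TPM in shNTC cells, a 4.02-fold difference (1.98, SE 0.0761, limma adjusted p = 6.93e-09). These means rest on 4006 and 903 recovered reads in shISG20 cells and on 4257 and 807 in shNTC cells. LDHA was the 180th highest log2 fold change of the 14389 rows in either comparison.

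The hypoxia effect of LDHA differed between the subclones by 0.11 (95% interval -0.130 to 0.345, limma adjusted p = 0.616), which missed the threshold. At 1% O2 the 3 shISG20 libraries lay above the 3 shNTC libraries, but the difference of 0.15 was not called (95% interval -0.0151 to 0.321, limma adjusted p = 0.224). It passed by voom (0.22, limma adjusted p = 0.000814). At 20% O2 the subclones overlapped (0.05, 95% interval -0.122 to 0.214, limma adjusted p = 0.770). In order of level, shISG20 cells at 1% O2 came first, then shNTC cells at 1% O2, then the pair of groups at 20% O2, and only the step between the oxygen levels passed the test.

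Human LDHA has many processed copies, and 6 pseudogene rows named after it stood in the table, of which LDHAP1, LDHAP2, LDHAP3, LDHAP5 and LDHAP7 held reads and LDHAP4 was listed at 0. These rows can share reads with LDHA, so its own level is uncertain. LDHA held 33.9% of the reads of the family in shISG20 cells at 1% O2 and 34.4% at 20% O2, against 35.4% and 34.1% in shNTC cells. Each of the 5 pseudogene rows was called higher at 1% O2, with log2 fold changes of 1.67 to 2.26 in shISG20 cells and 1.62 to 2.03 in shNTC cells. Summed over the family, its rows took 0.111% ± 0.00200 of the recovered reads in shISG20 cells at 1% O2 and 0.0224% ± 0.000285 at 20% O2, against 0.0934% ± 0.00199 and 0.0218% ± 0.000507 in shNTC cells (SD, n = 3). With the TPM of the family rows summed, the sum was higher in shISG20 than in shNTC cells at 1% O2 (0.22, limma adjusted p = 0.0031). The hypoxia effect of the sum was larger in shISG20 cells (0.20, limma adjusted p = 0.0381). LDHAP5 and LDHAP2 made up most of this sum, with means of 999 and 665 TPM in shISG20 cells at 1% O2, against 140 TPM for LDHA. These are therefore not calls of the LDHA row itself. LDHAP2 alone was also called higher in shISG20 cells at 1% O2 (0.39, limma adjusted p = 0.00793).

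**Figure D2:**
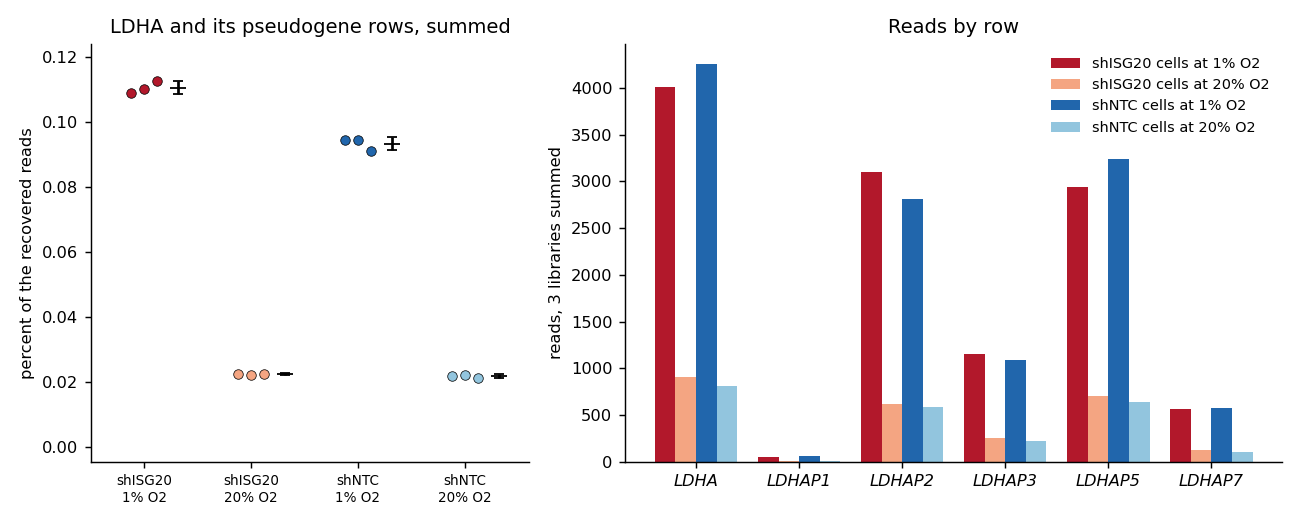
Left, percent of the recovered reads of a library that fell in LDHA and its 5 pseudogene rows with reads, summed (points are libraries), with the mean and SD of 3 libraries beside them. Right, reads of each row summed over the 3 libraries of a group (bars start at 0). The summed share averages 0.111% in shISG20 cells and 0.0934% in shNTC cells at 1% O2, and is lower at 20% O2 in both, 0.0224% and 0.0218%.

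LDHB, the chain that favours the use of lactate, was listed at 0 in every library, as were the rows LDHBP1, LDHBP2 and LDHBP3. No statement on the balance of the A and B chains can be made from this table.

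SLC16A3 (ENSG00000141526) encodes MCT4, the transporter known for lactate export. It had 17.8, 17.9 and 18.0 TPM in shISG20 cells at 1% O2, against 6.86, 6.79 and 7.98 TPM at 20% O2. In shNTC cells it had 19.9, 21.4 and 18.4 TPM at 1% O2, against 3.70, 5.04 and 4.39 TPM at 20% O2. No 2 groups overlapped, and the subclones lay further apart at 20% O2, where shISG20 was the higher, than at 1% O2, where it was the lower. The mean rose to 17.9 ± 0.0626 TPM in shISG20 cells at 1% O2, against 7.21 ± 0.667 TPM at 20% O2 (2.49-fold, log2 fold change 1.21, SE 0.113, limma adjusted p = 4.35e-06). In shNTC cells it rose to 19.9 ± 1.49 TPM, against 4.38 ± 0.672 TPM (4.55-fold, 1.96, SE 0.113, limma adjusted p = 1.34e-07). The hypoxia effect was smaller in shISG20 cells by 0.76 (SE 0.160, limma adjusted p = 0.0198), a call lost without shNTC replicate 2 at 1% O2 (-0.70, limma adjusted p = 0.0535).

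SLC16A3 was called between subclones at 20% O2, where it was 1.65-fold higher in shISG20 cells (log2 fold change 0.61, limma adjusted p = 0.00588). This call was lost when only the groups compared entered the fit (limma adjusted p = 0.0553). At 1% O2 the difference of -0.14 was not called (95% interval -0.392 to 0.109, limma adjusted p = 0.471). In order of level SLC16A3 stood highest in shNTC cells at 1% O2, then shISG20 cells at 1% O2, shISG20 cells at 20% O2 and shNTC cells at 20% O2, and the difference of the first pair missed the threshold.

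SLC16A1 (ENSG00000155380) encodes MCT1, which carries lactate in either direction along its gradient. It had 39.3, 47.8 and 38.7 TPM in shISG20 cells at 1% O2, against 92.9, 95.4 and 93.3 TPM at 20% O2. For shNTC cells the values were 53.4, 51.1 and 51.3 TPM at 1% O2, against 72.2, 72.0 and 77.6 TPM at 20% O2. No 2 groups overlapped, and the shISG20 libraries were the lowest at 1% O2 and the highest at 20% O2. The mean fell to 42.0 ± 5.10 TPM in shISG20 cells at 1% O2, against 93.9 ± 1.35 TPM at 20% O2, a change of -55.3% (log2 fold change -1.15, SE 0.0774, limma adjusted p = 3.07e-07). In shNTC cells it fell to 51.9 ± 1.28 TPM, against 73.9 ± 3.18 TPM, a change of -29.8% (-0.50, SE 0.0774, limma adjusted p = 0.000255). The hypoxia effect was more negative in shISG20 cells by 0.65 (SE 0.109, limma adjusted p = 0.00734).

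The size of the fall of SLC16A1 depends on how libraries are scaled. The median log2 fold change of all rows at 1% against 20% O2 was -0.35 in shISG20 cells and -0.28 in shNTC cells, and 0.00 in both with median-of-ratios size factors. Relative to that median SLC16A1 fell in shISG20 cells (-0.73 with these size factors, -0.74 by voom, called in both), whereas in shNTC cells its value was -0.16 by either and was not called (limma adjusted p = 0.068 and 0.058). Under quantile normalization it stayed called in shNTC cells, at -0.26 (limma adjusted p = 0.00842). The same scaling raised the values of LDHA to 2.50 and 2.31, of SLC16A3 to 1.59 and 2.26 and of CA12 to 1.89 and 2.64 in shISG20 and shNTC cells. Over all rows, calls split into 2021 higher and 6152 lower in shISG20 cells as deposited, and into 3781 and 3828 with size factors. In shNTC cells they split into 1847 and 5479 as deposited, and into 3311 and 3210.

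Between subclones, SLC16A1 was higher in shISG20 cells at 20% O2 (1.27-fold, log2 fold change 0.34, limma adjusted p = 0.0172) and lower at 1% O2 (-19.2%, -0.31, limma adjusted p = 0.0243). The call at 20% O2 was lost without shNTC replicate 1 or 2 or without shISG20 replicate 2 (0.32 to 0.33). The call at 1% O2 was lost with only the groups compared (limma adjusted p = 0.113) and on leaving out any of the 6 libraries other than shISG20 replicate 2. The row SLC16A1P1, a pseudogene named after it with few reads, was not called between subclones at 1% O2 (-0.17, limma adjusted p = 0.811) or at 20% O2 (0.66, limma adjusted p = 0.291).

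The ratio of the SLC16A3 value to the SLC16A1 value does not depend on the scaling of a library, and its absolute size has no meaning here because both rows were counted across species. It was 0.454, 0.375 and 0.464 in shISG20 cells at 1% O2, against 0.0738, 0.0712 and 0.0856 at 20% O2. For shNTC cells the ratios were 0.372, 0.419 and 0.359 at 1% O2, against 0.0512, 0.0701 and 0.0566 at 20% O2. All 6 libraries at 1% O2 lay above all 6 at 20% O2, while the subclones overlapped at 1% O2. By geometric means the ratio was 5.60-fold higher at 1% O2 in shISG20 cells and 6.51-fold higher in shNTC cells. On the log2 ratios each had an exact two-sided permutation p = 0.1, the smallest that 3 against 3 libraries allow. The geometric mean ratio of shISG20 cells divided by that of shNTC cells was 1.12 at 1% O2 (exact permutation p = 0.2) and 1.30 at 20% O2 (exact permutation p = 0.1).

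**Figure D3:**
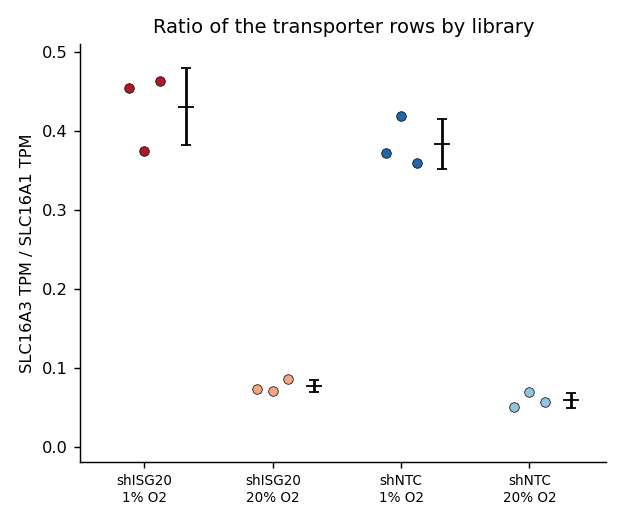
Ratio of SLC16A3 TPM to SLC16A1 TPM (vertical axis, linear) in each library (points), with the mean and SD of 3 libraries beside them. Libraries at 1% O2 lie between 0.359 and 0.464 and those at 20% O2 between 0.0512 and 0.0856.

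BSG (ENSG00000172270), the chaperone of both transporters, was near the limit of what this table can measure. It had 2.34, 1.77 and 2.61 TPM in shISG20 cells at 1% O2, against 0, 0.256 and 0.204 TPM at 20% O2. Levels in shNTC cells were 1.73, 2.44 and 3.04 TPM at 1% O2, and the 3 libraries at 20% O2 were listed at 0. Every library at 1% O2 lay above every library at 20% O2. In shISG20 cells 40 reads against 3 gave a ratio of 14.7 after correction for depth (95% counting interval 4.67 to 74.0). In shNTC cells there were 50 reads against 0. With 3 reads over the group put in place of 0, the ratio after correction for depth was 14.0, which is not a lower limit. The interval covers counting error only, and is no test, since the row was admitted through its values at 1% O2.

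The fitted log2 fold changes of BSG at 1% against 20% O2, given with no test because of how the row passed the minimum, were 1.49 in shISG20 cells and 1.75 in shNTC cells. They depend on the pseudocount, and were 3.39 and 4.61 with 0.1 in place of 1. The subclones overlapped at 1% O2, where the difference of -0.06 was not called (95% interval -0.519 to 0.394, limma adjusted p = 0.891) and changed sign under other settings. The hypoxia effects differed by -0.26 (limma adjusted p = 0.660), which missed the threshold.

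CA12 (ENSG00000074410) encodes carbonic anhydrase XII, an enzyme whose active site faces the outside of the cell. It had 16.8, 17.2 and 15.4 TPM in shISG20 cells at 1% O2, against 5.40, 4.64 and 5.40 TPM at 20% O2. The shNTC libraries had 19.5, 23.3 and 25.6 TPM at 1% O2, against 4.56, 3.29 and 3.19 TPM at 20% O2. No 2 groups overlapped: shNTC libraries were the highest at 1% O2 and the lowest at 20% O2. The mean rose to 16.5 ± 0.947 TPM in shISG20 cells at 1% O2, against 5.15 ± 0.438 TPM at 20% O2 (3.21-fold, log2 fold change 1.51, SE 0.139, limma adjusted p = 3.69e-06). The shNTC mean rose to 22.8 ± 3.09 TPM, against 3.68 ± 0.761 TPM (6.19-fold, 2.35, SE 0.139, limma adjusted p = 1.61e-07), the 108th highest log2 fold change of all rows.

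The hypoxia effect of CA12 was smaller in shISG20 cells by 0.84 (SE 0.197, limma adjusted p = 0.0304). This call was lost without shNTC replicate 2 or 3 at either oxygen level and without shISG20 replicate 1 or 3 at either oxygen level, with values of -0.75 to -0.85. The separate differences between subclones were not called, neither the lower level in shISG20 cells at 1% O2 (-0.44, 95% interval -0.743 to -0.129, limma adjusted p = 0.0629) nor the higher level at 20% O2 (0.40, 95% interval 0.0962 to 0.710, limma adjusted p = 0.0917). Without shNTC replicate 1 the values passed at 1% O2 (-0.54, limma adjusted p = 0.0462) and at 20% O2 (0.53, limma adjusted p = 0.039). In rows of mouse genes alone both passed as well (-0.43 and 0.44), and the value at 1% O2 passed by voom (-0.37) and at a minimum of 5 TPM (limma adjusted p = 0.0483).

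CA9 (ENSG00000107159), the other membrane carbonic anhydrase, is widely used as a marker of tumour hypoxia, but was barely covered. In shISG20 cells it had 0.368, 0.379 and 0.439 TPM at 1% O2, and the 3 libraries at 20% O2 were listed at 0. Levels in shNTC cells were 0.314, 0.303 and 1.99 TPM at 1% O2, against 0.431, 0 and 0 TPM at 20% O2. The subclones overlapped at 1% O2, and 1 shNTC library stood apart at each oxygen level. These are 3 reads against 0 in shISG20 cells, for which no fold is given, and 7 against 1 in shNTC cells, a ratio of 5.90 with a 95% counting interval of 0.758 to 266. A difference was not detectable at this depth.

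**Figure D4:**
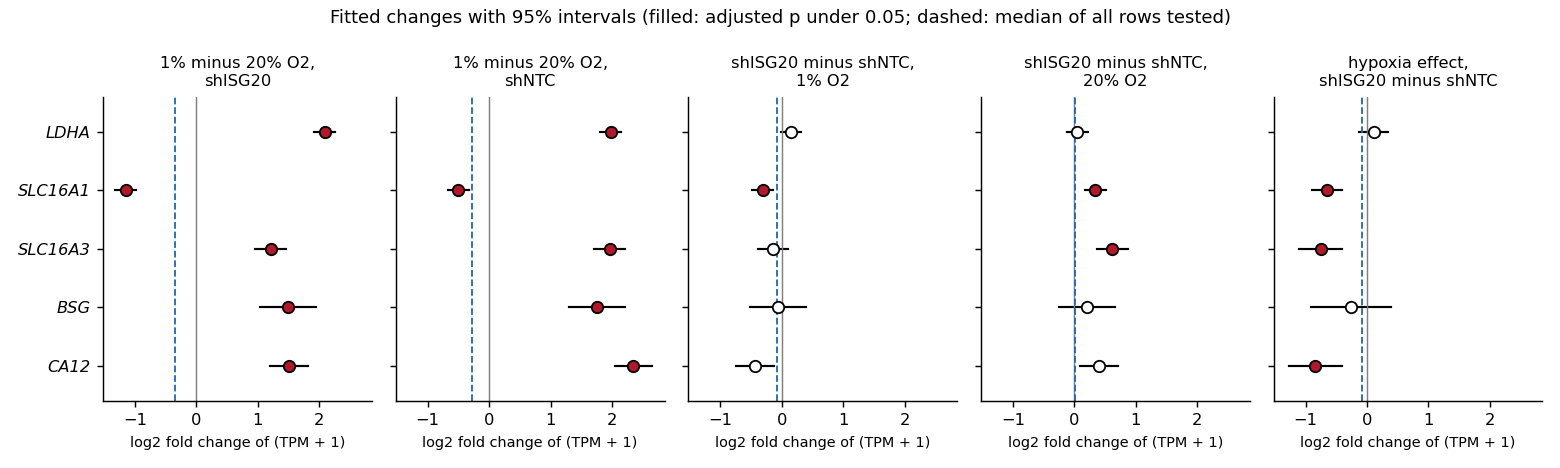
Fitted log2 fold change of (TPM + 1) with its 95% interval (horizontal axes) for the 5 genes tested, in 5 comparisons: 1% minus 20% O2 in shISG20 and in shNTC cells, shISG20 minus shNTC at 1% and at 20% O2, and the difference of the hypoxia effects. Filled points had a limma adjusted p under 0.05, which for BSG in the first 2 panels is no test, since the row passed the minimum through its values at 1% O2, and the dashed line is the median of all rows tested. In the last panel SLC16A1, SLC16A3 and CA12 lie below 0 at -0.65, -0.76 and -0.84, and the intervals of LDHA and BSG include 0.

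Of the 5 tested genes 3 were called for the difference of the hypoxia effect (SLC16A1, SLC16A3 and CA12), against 6.93% of all rows. All 3 values were negative, but they stand for unlike patterns: SLC16A3 and CA12 rose less at 1% O2 in shISG20 cells, and SLC16A1 fell more. Over all rows 2.62% had a difference called positive and 4.31% one called negative. Between subclones 1 of 5 was called at 1% O2 (SLC16A1, lower in shISG20), against 13.9% of all rows, 4.25% higher and 9.66% lower. At 20% O2 it was 2 of 5 (SLC16A1 and SLC16A3, both higher in shISG20), against 11.6% of all rows, 5.05% higher and 6.55% lower. The libraries of the subclones did not overlap for 4 of 5 genes at 1% O2 (BSG did) and for 3 of 5 at 20% O2 (LDHA and BSG did), against 31.2% of all rows at each oxygen level. The comparisons share libraries, so their calls are not independent of each other.

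Among 13 other genes of lactate and pyruvate handling 4 were tested. At 1% O2, 1 was called higher and 3 lower in shISG20 cells, and 1 higher and 2 lower in shNTC cells (median log2 fold changes -0.76 and -0.50, against -0.35 and -0.28 over all rows). MPC2, a subunit of the carrier that takes pyruvate into mitochondria, fell to 10.3 ± 1.83 TPM in shISG20 cells at 1% O2, against 24.0 ± 2.72 TPM at 20% O2 (-1.15, limma adjusted p = 4.77e-05), and to 9.65 ± 0.939 TPM in shNTC cells, against 21.2 ± 2.90 TPM (-1.06, limma adjusted p = 0.000118). Its partner subunit MPC1 fell in shISG20 cells (-1.04, limma adjusted p = 0.00998), and its value in shNTC cells was -0.58 (limma adjusted p = 0.123). The call of MPC1 in shISG20 cells was lost with size factors (-0.64) and under quantile normalization (-0.63), and kept by voom (-0.63). NPTN, neuroplastin, a relative of basigin that can escort MCT transporters, fell by 0.49 and 0.43 in shISG20 and shNTC cells. Both calls were lost with size factors (-0.07 and -0.09) and by voom (-0.07 and -0.08), and kept under quantile normalization (-0.27 and -0.25). The 1 counted as higher was LDHAL6A, a lactate dehydrogenase paralogue, which passed the minimum through its values at 1% O2 alone, so that its direction was set by the filter. It averaged 1.30 against 0.361 TPM in shISG20 cells and 1.16 against 0.183 TPM in shNTC cells, and may share reads with LDHA. None of the 4 was called between subclones at either oxygen level by limma (1 at an unadjusted p under 0.05 at 1% O2 and 0 at 20% O2) or by voom.

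Of 32 acid-base transporters and carbonic anhydrases 13 were tested, and CA5B, CA7 and CA13 were the carbonic anhydrases among them. At 1% O2, 1 was called higher and 7 lower in shISG20 cells, and 0 and 5 in shNTC cells (5 and 4 by voom, and 0 and 6 with an unadjusted p under 0.05). Over all rows 14% were called higher and 42.8% lower in shISG20 cells, and 12.8% and 38.1% in shNTC cells, and the list medians were -0.43 and -0.21, against -0.35 and -0.28. With size factors the counts were 4 and 4, and 2 and 4. SLC4A2, a chloride-bicarbonate exchanger, stood at 12.8 ± 0.697 TPM in shISG20 cells at 1% O2, against 51.0 ± 2.93 TPM at 20% O2 (-1.92, limma adjusted p = 6.05e-09), and at 21.4 ± 1.57 against 57.1 ± 1.23 TPM in shNTC cells (-1.38, limma adjusted p = 9.95e-08). SLC9A8, a sodium-proton exchanger of the Golgi, fell by 1.82 and 1.12. SLC4A7, a sodium-bicarbonate cotransporter, fell by 0.43 in shISG20 cells, a call lost with size factors (-0.05), and by 0.80 in shNTC cells. SLC4A11, a membrane transporter of the same family, fell in shISG20 cells (-1.05, limma adjusted p = 0.000346), and its value in shNTC cells was -0.21 (limma adjusted p = 0.337), which turned to 0.11 with size factors. Between subclones 3 were called lower in shISG20 cells at 1% O2 and 3 at 20% O2, and 0 higher, SLC4A2 (-0.70) and SLC4A11 (-0.90) at 1% O2 and SLC4A7 (-0.46) at 20% O2 among them. Over all rows 4.25% were called higher and 9.66% lower at 1% O2, and 5.05% and 6.55% at 20% O2, and the list medians were -0.24 and -0.16, against -0.07 and 0.01. By voom the counts higher were 0 and 1, as they were with an unadjusted p under 0.05.

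The V-ATPase, which pumps protons into lysosomes and in some cells across the plasma membrane, was the best covered of these lists, with 17 of 24 genes tested. At 1% O2, 1 was called higher and 15 lower in shISG20 cells, and 3 and 12 in shNTC cells (median log2 fold changes -0.70 and -0.37, against -0.35 and -0.28 over all rows). With size factors these counts became 3 and 9, and 4 and 4. Between subclones 0 were higher and 8 lower in shISG20 cells at 1% O2 (by voom 1 and 6, with an unadjusted p under 0.05 1 and 11), and 7 higher and 0 lower at 20% O2 (by voom 9 and 1, unadjusted 11 and 1). All rows called came to 4.25% higher and 9.66% lower at 1% O2, and to 5.05% and 6.55% at 20% O2. The V-ATPase medians were -0.22 and 0.20, against -0.07 and 0.01 over all rows. With size factors 1 was higher and 4 lower at 1% O2, and 9 and 0 at 20% O2.

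ATP6V0B, of the membrane sector of the pump, stood at 119 ± 1.21 TPM in shISG20 cells at 1% O2 and 291 ± 13.8 TPM at 20% O2, against 140 ± 4.04 and 193 ± 16.5 TPM in shNTC cells. The shISG20 mean was thus the lower at 1% O2 and the higher at 20% O2. ATP6AP2, an accessory subunit, showed the same order of means, 8.18 ± 0.560 and 22.9 ± 1.82 TPM against 11.9 ± 0.550 and 15.7 ± 0.902 TPM. ATP6V1C1, of the catalytic sector, stood at 25.6 ± 4.48 and 91.2 ± 5.08 TPM against 31.2 ± 1.34 and 70.1 ± 3.62 TPM, and was called between subclones at 20% O2 (0.37, limma adjusted p = 0.0416) but not at 1% O2 (-0.28, limma adjusted p = 0.102). ATP6V1B2, another subunit of that sector, stood at 35.0 ± 1.84 and 69.9 ± 3.78 TPM, against 35.1 ± 0.731 and 56.4 ± 2.53 TPM. The receptors for protons or lactate GPR4, GPR65, GPR132, ASIC1, ASIC3 and HCAR1 did not reach the minimum for testing.

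**Figure D5:**
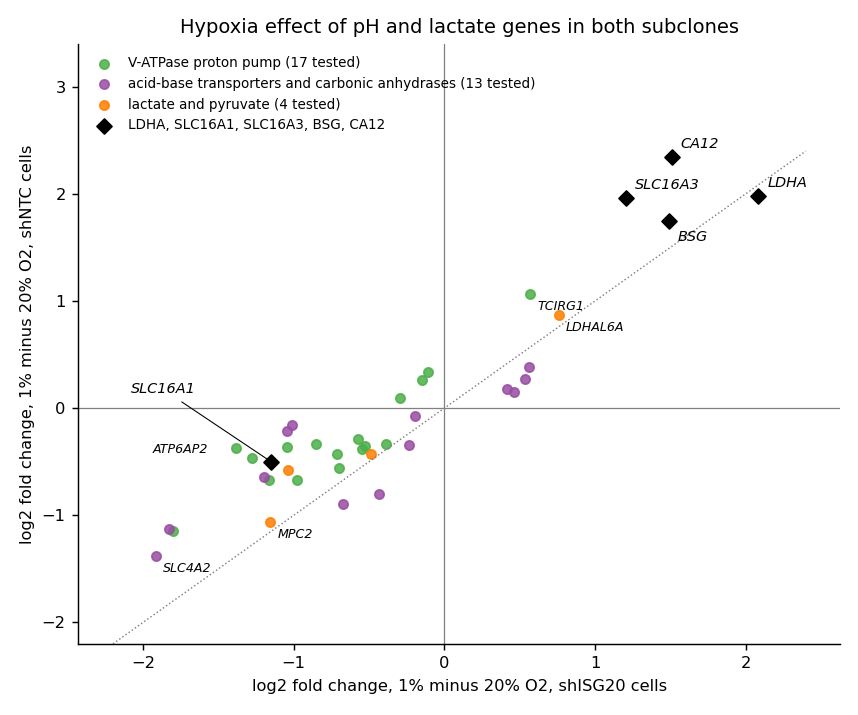
Log2 fold change of (TPM + 1) at 1% minus 20% O2 in shISG20 cells (horizontal axis) against shNTC cells (vertical axis) for the 5 tested genes (diamonds) and the other tested genes of the 3 lists (circles). On the dotted line both subclones change equally, and the axes do not share libraries. CA12 and SLC16A3 lie above the line, and most of the V-ATPase genes lie left of 0.

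Across the 12 libraries, the rows most like each gene were found by Pearson's r of log2(TPM + 1) among 4291 rows of mouse genes averaging at least 10 TPM. These values describe points that share the 4 groups, and carry no p. LDHA was closest to PGK1, a glycolytic kinase (r = 0.997), P4HB, a protein disulfide isomerase (0.997), and SRA1 (0.996). PGK1 stood at 4788 ± 108 TPM in shISG20 cells at 1% O2 and 1053 ± 31.4 TPM at 20% O2, against 4158 ± 214 and 972 ± 10.7 TPM in shNTC cells. SLC16A1 was closest to CEP170B (0.995), VAC14 (0.990) and CSE1L (0.989), which all stood highest in shISG20 cells at 20% O2 and lowest in shISG20 cells at 1% O2. SLC16A3 was closest to ADM, which encodes adrenomedullin (0.991), DNM1 (0.985) and CRYAB, a small heat shock protein (0.984). CA12 was closest to DDIT4 (0.995), ATG9B (0.991) and CRYAB (0.988), and BSG to ETV4 (0.983), TUBB6 (0.982) and CRYAB (0.982). CRYAB stood at 394 ± 12.9 TPM in shISG20 cells at 1% O2 and 97.5 ± 3.20 TPM at 20% O2, against 472 ± 51.6 and 64.2 ± 1.72 TPM in shNTC cells, an order of groups that SLC16A3 and CA12 also had.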

How the data were processed

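RNA was sequenced from 12 libraries of EMT6 cells in 4 groups of 3, taken from the labels. The authors deposited 1 table of TPM values with 60683 rows. The submitters' processing notes name the build GRCh38, FastQC, STAR and featureCounts. Tool versions, and how counts became TPM, are not given in the sources used here. The build is a human one, so mouse reads were counted only where they aligned to human genes. Of the 14389 tested rows 8336 carry the symbol of a mouse gene and 234 a synonym.

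TPM keeps no depth by itself, but whole reads could be recovered from the ratios within each row for 100% of 189206 values above 0 (tolerance 0.01), save for a divisor common to a row. They summed to 3173991 to 5201799 per library. No column was left out.

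Rows that reached 1 TPM in 3 or more libraries were tested with limma 3.58.1 in R 4.3.3 on log2(TPM + 1), with empirical Bayes moderation, a variance trend, 1 coefficient per group over all 12 libraries and Benjamini-Hochberg adjustment at 0.05. Fold changes on this scale understate those of low genes. "Size factors" are median-of-ratios factors computed on the TPM of the tested rows, and voom was run on the recovered reads with TMM library sizes. The fit was tested on simulated libraries. Other values came from Python 3.11.15, numpy 2.4.6, pandas 2.3.3, scipy 1.17.1 and matplotlib 3.10.9.

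The genes and lists were chosen with earlier results of these data known. Named were the 7 genes, ISG20, rows of their pseudogenes, per list at most the 4 called genes with the smallest p, and per tested gene the 3 rows most like it. Some genes of the lists are not reported here. Alternatives were another pseudocount, no filter or at least 5 TPM, quantile normalization, size factors, rows of mouse genes alone, voom, only the groups compared, no variance trend, the replicate number as a block, LDHA summed with its pseudogenes, and leaving out each library.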

Additional observations from a re-analysis of the deposited data

Results flagged for a closer look

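Hypoxia effects (1% minus 20% O2, log2) were compared between shISG20 and shNTC cells by limma's test of the difference itself. Over all rows tested, 6.93% were called at an adjusted p under 0.05. Among the main genes, ISG20 and the genes named from the pathway lists, 8 passed this threshold. For ISG20 this is no test, for the reason given below. For SLC16A1 the difference was -0.65 (limma adjusted p = 0.00734), for SLC16A3 -0.76 (limma adjusted p = 0.0198) and for CA12 -0.84 (limma adjusted p = 0.0304). For ISG20, the target of the hairpin, it was -1.07 (limma adjusted p = 0.0192). The ISG20 row passed the minimum through shNTC libraries alone and had few reads in shISG20 cells, so its value is a description with no test. The call was lost by voom (-0.41), at a pseudocount of 0.1 (-0.66), at a minimum of 5 TPM (limma adjusted p = 0.0662) and without shNTC replicate 1 or 2 at 1% O2 (-1.03 and -1.06). For the transporter SLC4A2 the difference was -0.54 (limma adjusted p = 0.0155). For the V-ATPase genes named by the rule it was -0.66 for ATP6V1C1 (limma adjusted p = 0.0252), -0.82 for ATP6V0B (limma adjusted p = 0.001) and -1.01 for ATP6AP2 (limma adjusted p = 0.00217). Of all 17 V-ATPase genes tested, 0 had a difference called positive and 8 one called negative (0 and 7 with size factors). Over all rows these shares were 2.62% and 4.31%. The call of SLC4A2 was lost under quantile normalization (-0.38, limma adjusted p = 0.0685). The cell type markers were not part of that count. Those that passed the same test all had positive differences: VIM (0.35), FN1 (0.67), S100A4 (0.91), TWIST1 (1.02) and COL1A2 (0.80). The call of VIM was lost under quantile normalization (0.18). What underlies any of these differences was not tested. The calls of SLC16A3 and CA12 were lost without single libraries named above. Single genes were not searched for a library that stands apart, since the groups hold 3 libraries each.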

How the results depend on the processing

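Of 425 values of the 5 tested genes under alternatives, 389 kept their direction and side of the threshold, 22 lost a call, 9 gained one and 5 changed sign, and the causes were not tested. The 389 include all hypoxia values of BSG, whose direction was set by the filter. In each subclone these were 6 without single libraries and 9 under other alternatives. The hypoxia calls of LDHA, SLC16A3 and CA12 held wherever the gene was tested. The sign changes were of small values without a call: BSG between subclones at 1% O2 (-0.06) was 0.058 under quantile normalization and 0.014 by voom, and -0.21 to 0.070 without single libraries, and LDHA at 20% O2 (0.05) was -0.044 to 0.10. The count of the 5 genes called between subclones at 1% O2 (1) was 2 at a minimum of 5 TPM, 2 in rows of mouse genes alone and 3 by voom. It was 2 with the LDHA family sum in place of LDHA, 0 with only the groups compared, and 0 to 1 without single libraries. At 20% O2 (2) it was 3 in rows of mouse genes alone, 1 with only the groups compared and 1 to 2 without single libraries. For the difference of the hypoxia effects (3) it was 4 with the LDHA family sum, 2 with the replicate block and 1 to 3 without single libraries. Over all rows, calls between subclones at 1% O2 (2001) numbered 957 with only the groups compared and 1161 to 1892 without single libraries, those at 20% O2 (1670) 1086 to 1155, and those of the difference (997) 1786 by voom and 597 to 1042. Same-numbered libraries did not deviate together (18 pairs, correlations -0.0567 to 0.0705). This cannot settle whether the numbers pair the cultures, since paired cultures need not deviate together. With the replicate number as a block, rows called numbered 8087 and 7129 for hypoxia in shISG20 and shNTC cells (8173 and 7326 without), 1748 and 1438 between subclones at 1% and 20% O2, and 726 for the difference, and CA12 lost its call there (-0.84, limma adjusted p = 0.061). edgeR was not run, since the deposited unit is TPM. The few reads of BSG and CA9 limit both, and without a filter the hypoxia values of CA9 were 0.48 and 0.61 in shISG20 and shNTC cells, neither called.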

Other observations

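Genes of pH control outside the rule for named genes were looked up after their values were seen. SLC9A5, a sodium-proton exchanger, stood at 40.7 ± 3.00 TPM in shISG20 cells at 1% O2, against 20.8 ± 0.691 TPM at 20% O2, and at 40.9 ± 4.38 against 21.1 ± 1.42 TPM in shNTC cells (SD, n = 3 each). It rose by 0.93 and 0.92 (limma adjusted p = 7.39e-06 and 1.03e-05), and the difference between subclones was -0.01 at 1% O2 (limma adjusted p = 0.987). TCIRG1, a V-ATPase subunit, rose at 1% O2 in both subclones, by 0.57 in shISG20 cells (limma adjusted p = 0.011) and by 1.06 in shNTC cells (limma adjusted p = 0.000241). SLC9A3R1, a scaffold protein that binds sodium-proton exchangers, was lower in shISG20 cells at both oxygen levels. It stood at 5.02 ± 1.14 TPM in shISG20 cells, against 13.1 ± 2.09 TPM in shNTC cells, at 1% O2 (-1.24, limma adjusted p = 0.0104), and at 3.26 ± 1.79 against 9.77 ± 1.26 TPM at 20% O2 (-1.41, limma adjusted p = 0.00567).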
